A study of Sus scrofa with 4 samples.

Results

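The liver library, made from a pig (Sus scrofa) of the Tibetan breed, was described against the heart, lung and kidney libraries of the same series. Its members were the gene models at 1 RPKM or more in liver, 11470 of the 18367 models that had a read in any of the 4 libraries. RPKM is the number of reads on a model divided by its length and by the total reads of its library, so it compares levels between models of different length. Each tissue was represented by 1 library, and the labels name no treatment, age or animal. Whether the tissues came from the same pig is therefore not known. Without replicate libraries there is no error between samples and no test between tissues, and every value describes these libraries. Intervals of a level (Poisson), a share or a ratio of reads (Clopper-Pearson) are exact 95% intervals and cover counting error only. Those of a median are 95% order-statistic intervals over the models of 1 library. Liver was the shallowest library, with 4090775 reads on gene models, against 5486480 in kidney, 8853076 in lung and 14062622 in heart.

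The liver is made up mostly of hepatocytes, which secrete most of the proteins of blood plasma, make bile, store and release glucose, and break down drugs, ammonia and hormones. A few messenger RNAs for secreted proteins and enzymes are known to make up much of the RNA of this cell type. The kidney cortex shares part of that programme, since its proximal tubules also make glucose and handle amino acids and organic ions. The model identifiers carry no gene names, and none of them matched the reference tables of pig genes. Defining markers of hepatocytes, blood or other cells could therefore not be read, the tissue label could not be checked against them, and models are described below by level, length and rank. In whole tissue, a model's level also moves with how many cells of each type were present, and fewer cells of a type cannot be told apart from less RNA per cell.

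Liver RNA was concentrated in very few models. The members were sorted into decades of liver RPKM. At 1 to 10 RPKM stood 5831 models, 50.8% of the members, and together they held 5.23% of liver reads (interval 5.21 to 5.26). The 4719 models at 10 to 100 RPKM held 19.91% (19.87 to 19.95), and the 826 models at 100 to 1000 RPKM held 26.9% (26.9 to 26.9). The 86 models at 1000 to 10000 RPKM held 26.0% (26.0 to 26.0). The 8 models at 10000 RPKM or more held 21.7% (21.7 to 21.8). The 94 models at 1000 RPKM or more thus carried 47.7% of liver reads. Models with a liver read but below 1 RPKM numbered 3023 and held 0.243% of reads (0.238 to 0.247).

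The same decades were filled differently in the other libraries. Models at 10000 RPKM or more in their own library numbered 6 in heart, 4 in kidney and 2 in lung, and held 6.33%, 3.55% and 1.56% of the reads there. At 1000 to 10000 RPKM the counts were closer to that of liver, with 111 models in heart, 100 in kidney and 77 in lung. These models held 24.2% of heart reads, 16.0% of kidney reads and 11.7% of lung reads. The middle decade of 10 to 100 RPKM showed the reverse order, with 8038 models and 48.4% of reads in lung, 6933 and 37.4% in kidney, 6081 and 31.1% in heart, and the least in liver. Liver thus had the fewest models and the smallest share of reads at middle levels, and the largest share at the top.

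**Figure D1:**
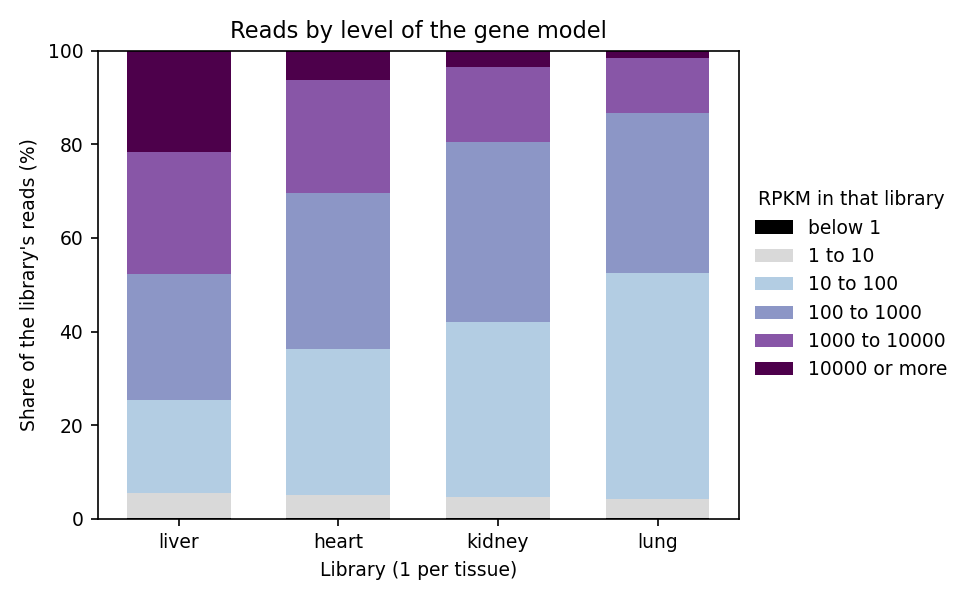
Share of each library's reads (vertical axis, percent) held by models below 1 RPKM and in 5 decades of RPKM in that same library, for 1 library per tissue. The darkest segment, models at 10000 RPKM or more, is 21.7% of liver reads and 6.33% or less in the other libraries.

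The top model by reads took a larger share in liver than in the other libraries. The highest, of 1860 bases, took 451990 reads, 11.0% of the liver library (11.0 to 11.1). The first model by reads took 3.49% in heart, 1.34% in kidney and 0.962% in lung. The 20 models of most reads held 34.7% of liver reads (34.6 to 34.7), against 22.6% in heart, 11.6% in kidney and 8.79% in lung. Extending the list to 1000 models brought liver to 78.2%, heart to 68.5%, kidney to 56.6% and lung to 53.4%.

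Depth decided how well the lowest decade could be read. At 1 RPKM a liver model of the median length, 1278 bases, is backed by 5.23 reads, and models at 1 to 10 RPKM had a median of 24 reads. Fewer than 10 reads lay behind 1212 members, 10.6% of them, with a median length of 595.5 bases. A single read was enough for 41 members, none longer than 244 bases. In the higher decades the median was 117 reads at 10 to 100 RPKM, 816 at 100 to 1000, 6289 at 1000 to 10000 and 69097 above. The members nearest the limit of 1 RPKM were 1.00 RPKM with 11 reads on 2687 bases just inside, and 0.998 RPKM with 1 read on 245 bases just outside.

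Highly expressed models were shorter than low ones in liver, and the trend stopped at 100 RPKM. The median length was 1518 bases (interval 1490 to 1549) at 1 to 10 RPKM and 1200 bases (1173 to 1242) at 10 to 100. It was 894 bases (852 to 954) at 100 to 1000 and 897 bases (645 to 1182) at 1000 to 10000. For the 8 models above, the median was 990 bases, between 291 and 1860. In the other libraries the next decade was shorter still: models at 1000 to 10000 RPKM had medians of 528 bases in heart (462 to 640), 579 in lung (456 to 735) and 636 in kidney (492 to 830). These intervals are taken over the models within 1 library and do not measure a difference between libraries. Models under 500 bases made up 31.4% of this decade in liver, 40.0% in kidney, 43.2% in heart and 45.5% in lung. Length is the divisor of RPKM, so a short model needs fewer reads to reach a high decade. Sorted by reads scaled to the library total alone, with no division by length, the liver medians were 1266, 1542, 1428 and 1488 bases from the lowest decade to that of 1000 to 10000, and the shortening with level was gone. That sorting favours long models, so it is not a neutral check. By RPKM, over models of 500 bases or more only, the medians were 1656, 1344, 1104 and 1272 bases. Shortening up to 100 to 1000 RPKM remained there.

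**Figure D2:**
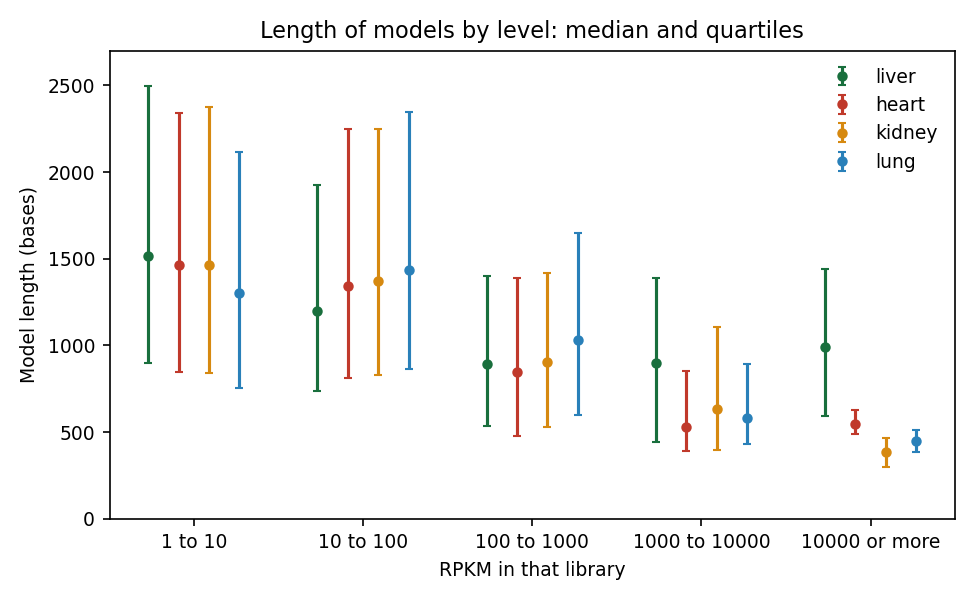
Length of gene models in bases (vertical axis) by RPKM in the named library (horizontal axis, decades); points are medians and bars span the quartiles. At 1000 to 10000 RPKM the liver median is 897 bases and those of heart, kidney and lung lie between 528 and 636.

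The longer top models of liver were those enriched in it. A model was called enriched in liver at 10 RPKM or more there and with an (RPKM + 1) at least 5 times that of the highest other library. This rule called 287 models, which is 1.56% of all models and 5.09% of the 5639 models at 10 RPKM or more in liver. The corresponding share was 7.36% in lung, 5.35% in heart and 4.38% in kidney. The 287 took 49.6% of liver reads (49.5 to 49.6). Models enriched by the same rule took 33.7% of reads in heart, 14.2% in kidney and 13.0% in lung. Outside liver, where the rule itself holds them low, the 287 took 0.932% of lung, 0.580% of kidney and 0.110% of heart reads.

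The enriched share grew with level. It was 2.31% of models at 10 to 100 RPKM (109 models), 15.7% at 100 to 1000 (130), 47.7% at 1000 to 10000 (41) and 7 of the 8 models above. Part of this is built into the rule, because a model near 10 RPKM reaches at most an 11-fold difference on this scale. The other libraries met the same rule in other proportions. At 1000 RPKM or more in their own library, 35 of 117 models were enriched in heart, 20 of 79 in lung and 17 of 104 in kidney, against 48 of 94 in liver. These differences in count have no test, since each rests on 1 library.

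Among models at 1000 RPKM or more in liver, the 48 enriched ones had a median length of 1345.5 bases and the 46 others 582 bases. Of the enriched, 9 were under 500 bases, and of the others 19. The same split gave 807 and 490.5 bases in heart, 757.5 and 504 in lung, and 1218 and 567 in kidney. In each of the 4 libraries the high models that were not enriched were thus the shorter ones. In liver, 30 of the 46 were at 100 RPKM or more in all 3 other libraries and 11 only in kidney. In 30 of the 46 some other library was higher than liver. Kidney was the highest of the other libraries in 28 of the 46, whether above or below liver.

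The models of highest liver RPKM with a higher value elsewhere both peaked in kidney. The model evm.model.scaffold46278.51, of 528 bases and rank 7 in liver, stood at 10800 RPKM in liver (10662 to 10939), 562 in heart, 2697 in lung and 25286 in kidney. Its liver level was 0.427 times that of kidney (0.421 to 0.433). The model evm.model.scaffold45520.16, of 444 bases and rank 13, stood at 5920 RPKM in liver (5809 to 6033), 4187 in heart, 3396 in lung and 12753 in kidney, and liver was at 0.464 times kidney (0.454 to 0.475). The first varied widely over the tissues, and the second was high in every library. Under median-ratio scaling, described below, the ratios were 0.881 and 0.958, still below 1.

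Low liver models stood below the other tissues and high ones above, as must happen in part when models are sorted by their liver level. The median liver level relative to lung, as a log2 ratio of (RPKM + 1), was -1.49 at 1 to 10 RPKM, -0.51 at 10 to 100, 1.49 at 100 to 1000, 5.98 at 1000 to 10000 and 9.12 above. Relative to heart the medians were -0.74, -0.18, 1.29, 9.14 and 13.13. Relative to kidney they were -1.02, -0.81, -0.28, 2.36 and 11.21. At 100 to 10000 RPKM in liver, kidney was the nearest of the other libraries by this median. At 100 to 1000 RPKM in liver the median kidney level was 224 RPKM, against 198 in liver, 75.3 in heart and 71.1 in lung. At 1000 to 10000 RPKM the medians were 1702 RPKM in liver, 301 in kidney, 32.2 in lung and 2.90 in heart. For the 8 models above, lung was nearest, with medians of 57.6 RPKM in lung, 7.24 in kidney and 1.19 in heart.

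Models at least 4-fold higher or lower in liver were counted among the members, beside the share over the 15357 models that reached 1 RPKM in some library. Liver was 4-fold higher than heart in 1079 members (9.41%), lung in 890 (7.76%) and kidney in 522 (4.55%), where the background was 7.03%, 5.8% and 3.4%. Every model that is 4-fold higher in liver is a member on this scale, so these counts are the same as over all models. At 100 to 1000 RPKM the shares were 43.6% against heart, 41.9% against lung and 21.2% against kidney, and at 1000 to 10000 RPKM they were 72.1%, 69.8% and 51.2%. Liver was 4-fold lower than heart in 1265 members (11.0%), lung in 2530 (22.1%) and kidney in 1275 (11.1%), where the background was 14.1%, 27.3% and 14.4%. Most of these lay at 1 to 10 RPKM, with 890, 2014 and 916. Models under 1 RPKM in liver are not members, so their lower calls enter the background and not the member shares. At 1000 RPKM or more, no model was 4-fold lower in liver than in any other library.

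These signs depended on the scaling. RPKM divides by a total of which, in liver, 27.1% came from 10 models. Median-ratio scaling, which sets the typical model to the same level across libraries, shifted the median of the 15357 models from -0.46 to -0.08 against heart, from -1.15 to -0.24 against lung and from -0.87 to -0.06 against kidney. Under it the medians of the members were 0.12, 0.12 and 0.08, and the medians at 10 to 100 RPKM turned positive, to 0.39 against heart, 0.62 against lung and 0.20 against kidney. At 100 to 1000 RPKM the kidney median also changed sign, to 0.75. The split of members against lung went from 890 higher and 2530 lower to 1568 and 987, against kidney from 522 and 1275 to 859 and 428, and against heart from 1079 and 1265 to 1479 and 756. The signs at 1 to 10 RPKM and at 1000 RPKM or more were the same under both scalings.

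Length moved with the difference from lung. In 5 classes of members by length, of near equal size and from 153 to 669 bases up to 2448 to 25947 bases, the median log2 ratio of liver to lung was -0.34, -0.65, -0.88, -1.11 and -1.46. Against kidney it was -0.78, -0.89, -0.84, -0.87 and -0.92, and against heart -0.35, -0.22, -0.29, -0.42 and -0.65. Median liver levels over the same classes were 14.4, 12.6, 10.6, 8.37 and 6.47 RPKM, whereas lung levels were between 20.04 and 22.2 RPKM in all 5. The part of length in the counts against lung was not tested.

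The next-highest tissue of the enriched models was most often lung or kidney. Lung was next in 128 of the 287, kidney in 122 and heart in 21, and 16 models had 0 reads in all 3 other libraries. Over the 5352 models at 10 RPKM or more that were not enriched, kidney was the highest other library in 48.2%, lung in 34.5% and heart in 17.3%. Over the 566 of these in which liver was highest, kidney was next in 63.6%, lung in 27.6% and heart in 8.83%. Enriched models thus had lung in second place more often (44.6%) and kidney less often (42.5%) than the 566, with no test of that difference. The level of the next tissue also decides whether a model is enriched or among the 566, so this contrast is not separate from the rule. The order of lung and kidney varied by setting. Kidney led lung under median-ratio scaling (194 against 160) and a fold of 3 (160 against 151). Kidney also led over models listed in all 4 tables (82 against 66). Thinning to the liver total, done in 1 random draw, gave kidney 122 and lung 116 of 289 enriched models. Models tied for second place are in neither of these counts, so the order under thinning is not clear. Lung led under TPM-like scaling (142 against 118), a fold of 10 (103 against 70) and a pseudocount of 0.1 (130 against 125). It led at a liver minimum of 1 RPKM (130 against 124) and without the 10 top models in the total (141 against 140).

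The tissues in second place held different parts of the liver RNA. The 128 models with lung next took 37.3% of liver reads (37.3 to 37.4), the 122 with kidney next 10.9% (10.9 to 11.0), the 21 with heart next 1.22% (1.21 to 1.23), and the 16 with none 0.0872% (0.0844 to 0.0901). Models with lung next stood at a median of 291 RPKM in liver and 1.94 in lung, with a median difference of 60.7-fold on the RPKM + 1 scale. Those with kidney next stood at 154 RPKM in liver and 7.84 in kidney, with a median of 12.7-fold. Those with heart next stood at 133 and 2.90 RPKM, with a median of 23.8-fold. The lung group thus lay further from its second tissue than the kidney group, and its second level was lower.

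Second place could not always be read beyond counting error. In 162 of the 287 models the exact interval of the ratio of the second-highest to the next tissue excluded 1: in 69 of the 128 with lung next, 83 of the 122 with kidney next and 10 of the 21 with heart next. Lung was below 1 RPKM in 45 of its 128 models, and kidney was at 1 RPKM or more in 102 of its 122.

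**Figure D3:**
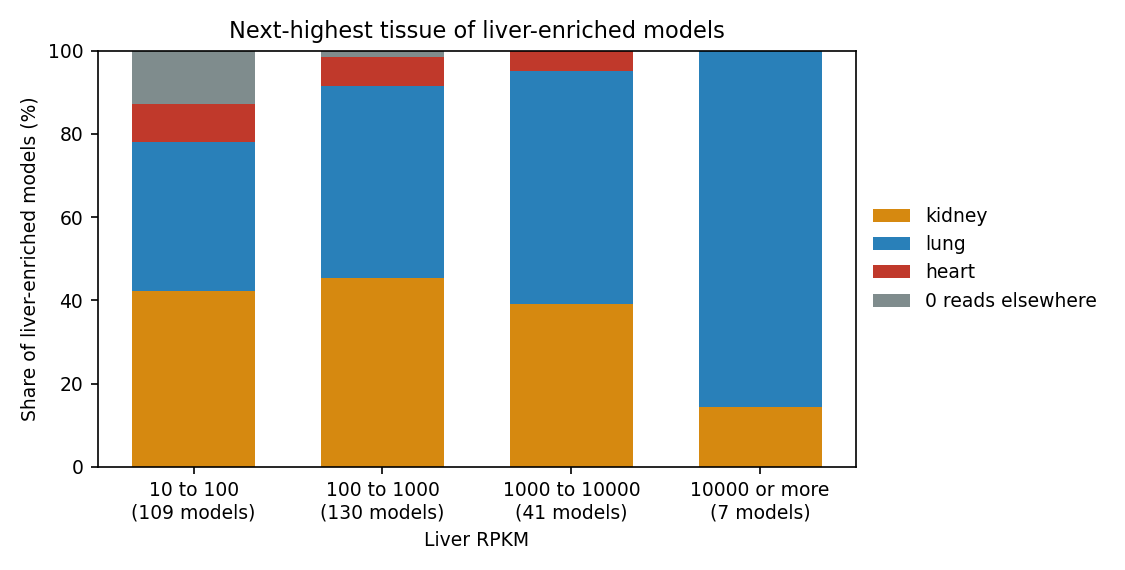
Share of liver-enriched models (vertical axis, percent) by the library of second-highest RPKM, in decades of liver RPKM with the number of models under each bar. Lung holds 35.8% of models at 10 to 100 RPKM and 6 of the 7 models at 10000 RPKM or more.

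The share of lung grew with the liver level. Lung was next in 39 of 109 enriched models at 10 to 100 RPKM, 60 of 130 at 100 to 1000, 23 of 41 at 1000 to 10000 and 6 of 7 above. For kidney the counts were 46, 59, 16 and 1, and for heart 10, 9, 2 and 0. In the highest decade second place was clear of the next tissue beyond counting error in all 7 models. The 16 models with no read elsewhere were low, 14 of them at 10 to 100 RPKM, with a median of 31.5 RPKM in liver. The highest of the 16, of 675 bases, had 697 reads and 252 RPKM in liver (234 to 272). With 3 counts put in place of 0 in each library, its liver level would be 799-fold that of heart, 503-fold that of lung and 312-fold that of kidney. The exact intervals of these ratios, which allow more than 3 counts, began at 648, 408 and 253.

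Fold and next tissue also went together. Of the 84 enriched models at 5 to 10-fold, kidney was next in 52 and lung in 25. Of the 72 at 100 to 1000-fold, kidney was next in 17 and lung in 49, and these 72 took 29.9% of liver reads (29.8 to 29.9). A difference above 1000-fold on the RPKM + 1 scale was reached by 1 model, of 384 bases and rank 27. It stood at 3365 RPKM in liver, with 4 reads in heart, 3 in lung and 1 in kidney. Without adding 1 RPKM its liver level was 3813 times that of lung, with an interval from 1304 to 18497. The size of this fold thus rests on few reads. Without adding 1 RPKM, several other models were above 1000-fold, and its fold was not the largest. A model of 529 bases stood at 954 RPKM in liver and 0.214 RPKM in lung, from 1 read, which is a larger fold. The model of rank 40, with heart next, stood at 1262 times heart (640 to 2927).

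**Figure D4:**
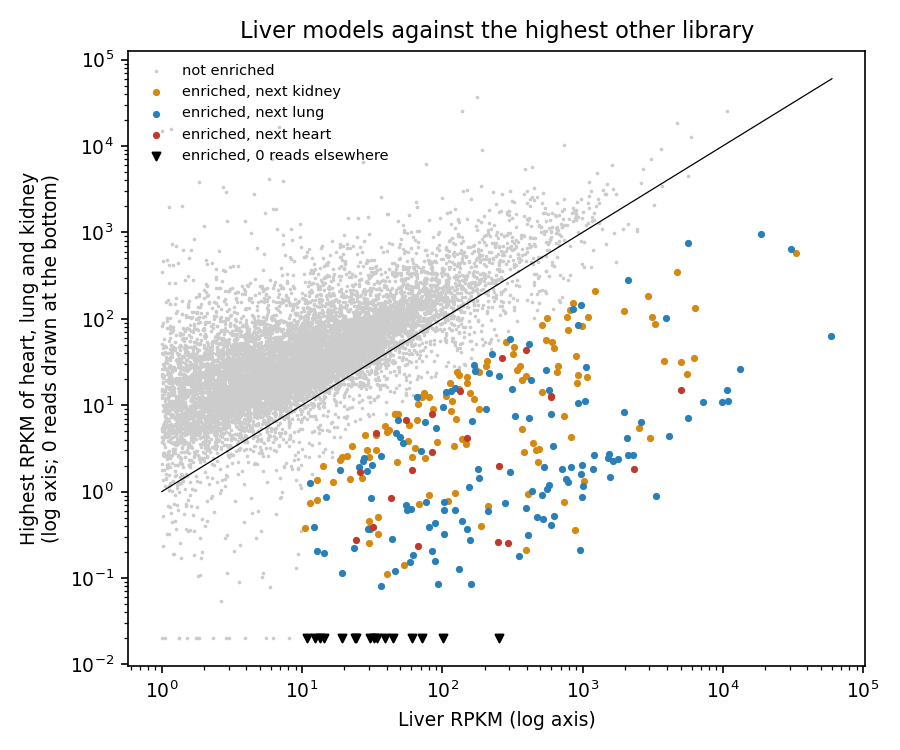
Liver RPKM (horizontal, log axis) against the highest RPKM of heart, lung and kidney (vertical, log axis) for the 11470 members; the line marks equal levels, colours give the second tissue of the 287 enriched models, and triangles mark the 16 with 0 reads elsewhere. Models with kidney next lie mostly nearer the line, with a median of 12.7-fold, and those with lung next further off, with a median of 60.7-fold.

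The models named here are, for each second tissue, the pair of highest liver RPKM. With lung next, evm.model.scaffold27953.4 (1860 bases, rank 1) stood at 59403 RPKM in liver, 1.64 in heart (1.19 to 2.21), 8.23 in kidney (6.57 to 10.2) and 63.6 in lung (59.8 to 67.6). Liver was 933 times lung (878 to 993), 7217 times kidney (5829 to 9048) and 36134 times heart (26826 to 49931). The other, evm.model.scaffold21842.4 (1044 bases, rank 3), stood at 30733 RPKM in liver, 2.32 in heart (1.60 to 3.24), 6.11 in kidney (4.26 to 8.50) and 639 in lung (623 to 656). Liver was 48.1 times lung (46.9 to 49.4) and 5030 times kidney (3616 to 7221). Both models were far lower in heart and kidney than in lung, and they differed in how high lung stood.

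With kidney next, both models came from the same scaffold and had consecutive model numbers. The first, evm.model.scaffold8242.32 (291 bases, rank 2), stood at 33037 RPKM in liver, 573 in kidney (537 to 611), 51.6 in lung (43.2 to 61.2) and 0.733 in heart (0.151 to 2.14). Liver was 57.6 times kidney (54.0 to 61.6) and 640 times lung (540 to 765). The second, evm.model.scaffold8242.33 (798 bases, rank 11), stood at 6313 RPKM in liver, 133 in kidney (123 to 144), 86.3 in lung (79.6 to 93.5) and 59.1 in heart (54.7 to 63.8). Liver was 47.4 times kidney (43.7 to 51.6), 73.1 times lung (67.5 to 79.4) and 107 times heart (98.9 to 116). The intervals of these neighbours did not overlap against any tissue, and their ratios were closest against kidney. In heart the first had only 3 reads.

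With heart next, evm.model.scaffold39686.7 (1380 bases, rank 19) stood at 4999 RPKM in liver, 14.8 in heart (13.2 to 16.7), 13.0 in lung (11.1 to 15.2) and 2.25 in kidney (1.31 to 3.59). The intervals of heart and lung overlapped, so the order of these tissues was not clear. The other, evm.model.scaffold18914.28 (309 bases, rank 40), stood at 2324 RPKM in liver, with 8 reads or 1.84 RPKM in heart (0.795 to 3.63), 4 reads or 1.46 RPKM in lung (0.398 to 3.74) and 1 read or 0.590 RPKM in kidney (0.0149 to 3.29). None of these levels could be told from another at this depth. Neither of the high models with heart next had a second tissue beyond counting error.

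The highest models differed from one another in all 3 other libraries. Ranks 5, 6, 8, 9 and 10, between 612 and 1575 bases, stood at 7233 to 13267 RPKM in liver and all had lung next, at 10.8 to 25.9 RPKM, with 0.298 to 6.25 in kidney. Rank 4, of 936 bases, was at 18655 RPKM in liver and 958 in lung (937 to 979), 19.5 times lower (19.0 to 19.9), with 16.0 in kidney. Rank 15, of 4986 bases, was at 5674 RPKM in liver and 755 in lung (747 to 763), and was rank 3 by reads. Ranks 12, 17, 18, 20, 24 and 28, all at 3296 RPKM or more in liver, had kidney next at 23.1 to 351 RPKM. Rank 20, of 1503 bases, was the nearest to kidney of these, at 4713 against 351 RPKM (339 to 364). Among the 30 highest models 7 were not enriched: ranks 7 and 13, already given, and ranks 14, 21, 25, 26 and 29. Ranks 14 and 26 were high in kidney too, at 4494 and 9281 RPKM, and low in heart and lung, at 17.4 RPKM or less. Rank 21 was highest in lung, at 18488 RPKM, rank 25 was nearly equal in liver and kidney, at 3702 and 3418 RPKM, and rank 29 was within 2-fold of liver in every library.

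Levels of the strongest liver models in lung lay in a narrow band relative to liver. For the 48 enriched models at 1000 RPKM or more, the lung level was a median of 0.164% of the liver level, with quartiles of 0.123% and 0.266%. All 48 had reads in lung, at a median of 76 reads. In kidney the median was 0.0897%, with quartiles of 0.0197% and 0.914% and 3 models at 0 reads. In heart it was 0.00541%, with quartiles of 0.00199% and 0.0241% and 9 models at 0 reads. The upper quartile was 2.17 times the lower in lung, 46.3 times in kidney and 12.1 times in heart.

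The same measure was taken for the models enriched at 1000 RPKM or more in the other tissues. The upper quartile was between 5.98 and 652 times the lower in the 8 remaining pairs of tissues where the lower quartile was above 0. The pair with 5.98 was the 17 kidney-enriched models measured in heart, at a median of 0.0721%. For the 35 heart-enriched models in liver the lower quartile was 0. The liver models in lung thus had the smallest spread of the 11 pairs with a ratio, without a test.

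Between 0.1% and 0.2% of the liver level in lung lay 27 of the 48 models, at liver levels from 1000 to 59403 RPKM and lung levels from 1.16 to 63.6 RPKM. This range was chosen after the values were seen. Of these 27, lung was next in 17 and kidney in 10. Another 4 models were below 0.1%, 8 were between 0.2% and 1%, and 9 were at 1% or more. Ranks 3, 4 and 15, at 2.08%, 5.13% and 13.3%, were among the last. No more than 4 of the 48 were between 0.1% and 0.2% in kidney, and 1 in heart. Whether liver RNA or liver reads entered the lung library at a fixed low share was not tested, and the second place of lung in the 17 models rests on these values. The counts above of models with lung next, by liver level and by fold, include these 17 and carry the same limit. Models in this range below 1000 RPKM were not counted, but some lay there too. The model of rank 138, with lung next, was at 764 RPKM in liver and at 0.183% of that in lung. The limit therefore also holds for lung in second place at lower liver levels. At 100 to 1000 RPKM in liver, the 130 enriched models stood in lung at a median of 0.551% of liver, with quartiles of 0.180% and 4.01%. With the lung library left out, 348 models were enriched, and kidney was next in 224, heart in 87 and none in 37. All 287 were among them by construction, since leaving out a library can only add models under this rule.

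**Figure D5:**
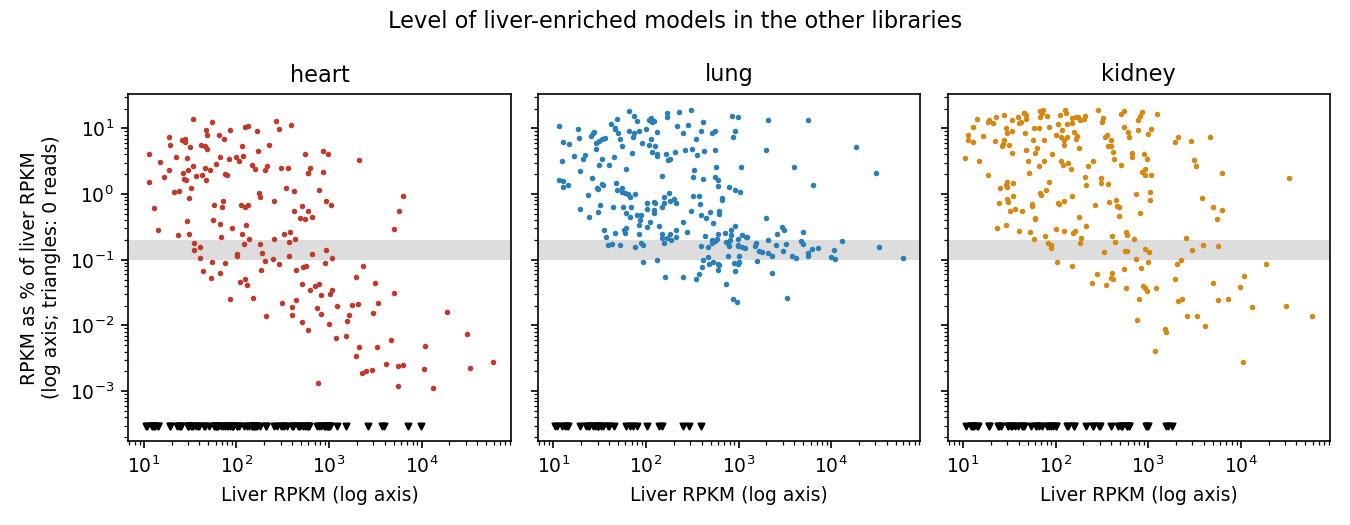
Level of the 287 liver-enriched models in heart, lung and kidney as a percent of their liver RPKM (vertical, log axis) against liver RPKM (horizontal, log axis); triangles are models with 0 reads and the grey band spans 0.1% to 0.2%. Above 1000 RPKM in liver, 27 of 48 models lie in the band in lung, 4 in kidney and 1 in heart.

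Kidney had the most effect on which models were called. With the kidney library left out, 545 models were enriched in liver, all 287 among them by construction, and they took 57.6% of liver reads (57.6 to 57.7). Without heart the count was 300.

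Some enriched models lay side by side. Identifiers give a scaffold and a model number, and 56 of the 287 liver-enriched models (19.5%) had another at a number 1 away on the same scaffold. For models enriched in heart this held for 36 of 382 (9.42%), in lung for 86 of 674 (12.8%) and in kidney for 47 of 368 (12.8%). The 56 formed 25 runs, of which 21 held 2 models, 3 held 3 and 1 held 5. The run of 5 on scaffold8242 included both named models with kidney next. Its members were at 285 to 33037 RPKM in liver, all had kidney next, and they took 1.71% of liver reads (1.70 to 1.72). A run of 3 models of ranks 6, 10 and 16, of 1488 to 2643 bases, stood at 5631 to 10968 RPKM in liver. All 3 had lung next, at no more than 11.2 RPKM, and they took 4.26% of liver reads (4.24 to 4.28). Adjacent models can be related genes that share reads, or pieces of a single gene, so the split of reads between them is uncertain. Model numbers are taken as an order along the scaffold, which was not checked against coordinates.

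The limits of the rule cut through a continuous range. Just inside the 5-fold limit stood models at 5.02, 5.07 and 5.08-fold, with 73.6, 66.3 and 67.2 RPKM in liver. Just outside were 4.93, 4.92 and 4.92-fold, with 16.3, 128 and 11.7 RPKM. Between 5 and 6-fold lay 25 models and between 4 and 5-fold 24. By level, the lowest inside stood at 10.5 and 10.8 RPKM and the highest outside at 9.90 and 9.83, and 10 members met the fold but were under 10 RPKM. For 266 of the 287 the counting interval of the ratio of liver to the next tissue, taken without the pseudocount, lay wholly above 5.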

How the data were processed

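For each library the authors deposited 1 table of read counts and RPKM per gene model, with the model length and library total. Counts are whole reads on a model, per the file headers. In all 4 tables they summed to the stated total, and the deposited RPKM equalled count over length and total within a relative tolerance of 1e-12. The submitters' processing notes name TopHat without a version. The counter, genome build, annotation and use of strand were not given in the sources used here. Tables were joined by identifier, and a model missing from a table counted as 0 reads. Of 18367 lengths, 89.5% were multiples of 3, so most are coding lengths. Identifiers matched 0 reference entries, and the 7 marker lists could not be read. Rules, fold classes and log2 ratios use a pseudocount of 1 RPKM and understate changes of low models, while ratios given as times another tissue with an interval use none. Models named by identifier are the 2 of highest liver RPKM per second tissue and the 2 highest with a larger value elsewhere. The level decades, the rule, the members and the lists were chosen with earlier results of these data known. The alternatives were median-ratio and TPM-like scaling, a total without the 10 models of most reads, other pseudocounts, folds, minimums and lengths, listing in all 4 tables, and thinning to the liver total. Leaving out a library was added after the values were seen. Median intervals are order-statistic intervals. Rules were tested on simulated data. The tools were scipy 1.17.1, numpy 2.4.6 and pandas 2.3.3 under Python 3.11.15, with plots from matplotlib 3.10.9.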

Additional observations from a re-analysis of the deposited data

How the results depend on the processing

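No paired analysis was possible because every group holds a single library. The count of liver members stayed within 1.5 times under all 5 alternatives. Median-ratio scaling called 418 models enriched, against 287, and they took 52.3% of liver reads. Heart was then next in 46, lung in 160 and kidney in 194, and 87 had an enriched neighbour. TPM-like scaling gave 49.7% of reads and a total without the 10 models of most reads gave 50.6%, a fold of 3 gave 51.3%, and a fold of 10 gave 44.2% with kidney next in 70. Only models listed in all 4 tables gave 163 enriched with 41.9% of reads, lung next in 66 and 0 with none, by construction. Without the lung library the enriched models took 52.5% of reads, with heart next in 87, kidney in 224 and none in 37. Without heart they took 49.7%, with lung next in 152 and kidney in 130. Without kidney 545 took 57.6%, with heart next in 121, lung in 396 and none in 28. From the lowest decade to the highest, read shares were 2.82%, 18.3%, 22.5%, 31.6% and 24.7% under median-ratio scaling, 4.05%, 19.2%, 25.2%, 28.7% and 22.8% under TPM-like scaling, and 3.59%, 18.7%, 23.8%, 30.9% and 22.8% without the 10 models in the total. The decade of 1000 to 10000 RPKM then held 168 models under median-ratio scaling and 137 without the 10. Median lengths up to that decade were 1266, 1542, 1428 and 1488 bases by reads not divided by length, and 1656, 1344, 1104 and 1272 bases for models of 500 bases or more. Median log2 ratios of liver under median-ratio scaling, in the lowest decade, were -0.25 against heart, -0.49 against lung and -0.13 against kidney. At 10 to 100 RPKM they changed sign to 0.39, 0.62 and 0.20. At 100 to 1000 they were 1.88 and 2.66, with kidney changing sign to 0.75, and lung stood at 10.27 in the highest decade. Without the 10 models in the total they were -0.60, -1.20 and -0.76 in the lowest decade, and 0.00035 (a changed sign), -0.15 and -0.49 in the next. At 100 to 1000 lung was 1.86 and kidney changed sign to 0.047. The intervals of both values that changed sign here span 0, so they have no clear direction. A pseudocount of 0.1 gave -0.88, -1.69 and -1.18 in the lowest decade, -0.84 against kidney in the next and 14.54 against heart in the highest. The cause of these moves was not tested beyond the change of scale. Of all 176 values under alternatives, 105 kept within their interval or 1.5 times, 65 moved and 6 changed sign. Depth limits the members at 1 to 10 RPKM most, with a median of 24 reads.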
